A study of Mus musculus with 11 samples.

Results

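The liver metallothioneins Mt1 and Mt2, their metal-sensing regulator Mtf1, 4 zinc importers of the Slc39 (ZIP) family and 2 transporters of the Slc30 (ZnT) family were followed in mouse liver. The Slc39 members were Slc39a4, Slc39a5, Slc39a8 and Slc39a14, and the Slc30 members were Slc30a1 and Slc30a10. Each array probe designed on a transcript of one of these 9 genes was taken, which gave 11 probes of the 26581 that could be tied to a gene. Mtf1 had 3 probes and every other gene had 1. All 9 genes were among the 15953 genes bright enough to test. The genes had been selected with the difference between antibody and PBS livers known, so their group differences are a description and carry no test.

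The livers came from db/db mice, which lack a working leptin receptor and are obese and diabetic, and all samples of both groups share this genotype. The anti-GCGR group (6 samples, replicates 1 to 6) had received 5 mg/kg of the antibody 3c7.v44, which targets the receptor for glucagon (GCGR). The PBS group (5 samples, replicates 1, 3, 4, 5 and 6) had received buffer alone. Each value is log2 of liver signal (Cy5) over a pooled mouse reference RNA (Cy3) on a two-colour array, with no dye swap, so a value of 0 means as bright as the reference. Ages, the time after dosing and whether each sample was a separate mouse are not stated in the labels, so p-values measure only the spread between these samples, which may be technical. Median Cy5 signals were 85 to 110 per array against a local background of 26 to 27, 66.2% to 77.1% of spots were well above background, and the number of arrays limits the precision. Of 10 hepatocyte markers, 10 were measured, and the lowest of their mean log2 ratios of liver over reference was 5.48.

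Metallothioneins are small cysteine-rich proteins that bind zinc and copper, and in liver they hold and buffer much of the exchangeable zinc. Free zinc activates the zinc-finger factor MTF1, which binds metal response elements and switches on the metallothionein genes and the exporter gene Slc30a1. ZIP proteins move zinc, and some of them iron or manganese, into the cytosol, and ZnT proteins move metal out of it. Hepatic metallothionein is also known in rodents to be induced by glucocorticoids, by glucagon and by inflammation.

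The sequences before the transcription starts of Mt1, Mt2 and Slc30a1 are shown because all 3 genes are known MTF1 targets while their values below differ in size. Each line is the 250 bases before the annotated start, 5′ to 3′ on the plus strand, from RefSeq (GRCm38.p6), at chr8:94178839-94179088 for Mt1, chr8:94172368-94172617 for Mt2 and chr1:191906531-191906780 for Slc30a1. Capitals mark matches to the core of the metal response element, searched as TGCACNC or TGCGCNC on both strands.
Mt1: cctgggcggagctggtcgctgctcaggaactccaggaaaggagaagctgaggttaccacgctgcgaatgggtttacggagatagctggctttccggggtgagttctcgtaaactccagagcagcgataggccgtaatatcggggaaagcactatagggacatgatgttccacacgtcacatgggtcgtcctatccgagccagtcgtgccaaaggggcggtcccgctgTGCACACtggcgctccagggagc
Mt2: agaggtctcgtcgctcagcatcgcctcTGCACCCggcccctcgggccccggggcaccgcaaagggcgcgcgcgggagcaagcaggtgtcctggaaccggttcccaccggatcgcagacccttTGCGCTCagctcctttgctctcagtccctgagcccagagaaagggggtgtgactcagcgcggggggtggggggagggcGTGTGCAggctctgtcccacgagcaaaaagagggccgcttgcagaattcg
Slc30a1: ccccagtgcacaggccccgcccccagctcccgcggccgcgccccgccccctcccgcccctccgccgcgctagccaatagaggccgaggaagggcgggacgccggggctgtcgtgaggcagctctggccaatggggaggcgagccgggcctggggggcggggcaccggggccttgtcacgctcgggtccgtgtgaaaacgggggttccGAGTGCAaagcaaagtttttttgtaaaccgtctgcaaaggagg
Mt2 held 3 matches, beginning 223, 128 and 50 bases before its annotated start. Mt1 held 1, beginning 23 bases before its annotated start, and Slc30a1 held 1, beginning 43 bases before. Whether liver uses these annotated starts was not tested. Over 300 bases reaching past the start, the counts were 4 for Mt2, 3 for Mt1 and 2 for Slc30a1. The counts thus depend on where the window ends, and they do not rank the genes. Among the 32841 promoters of the table, 21.4% held at least 1 match in the 250 bases and 25.7% held one in the 300 bases, where 1.97% held 3 or more and 0.518% held 4 or more. Promoters were found for 7 of the 9 genes, and those of Slc39a4 and Slc39a14 are not used here. Slc30a10 held 3 matches in its 250 bases, of which 2 overlapped on opposite strands, while Mtf1 held 0. Slc39a5 and Slc39a8 have 2 promoters each, and 1 of the 2 held a single match in both genes. The cAMP response element TGACGTCA, present in 1.55% of promoters, was not matched in any of these windows. The antioxidant response core TGACNNNGC, present in 10.2%, was matched once in Mt2, beginning 79 bases before the start, once each in Slc30a1 and in 1 promoter of Slc39a8, and at 2 places in 1 promoter of Slc39a5. A match describes letters and says nothing of binding.

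Mt2, the more strongly differing of the 2 metallothioneins, had log2 ratios of -2.93, -0.64, -2.12, -2.79, 2.30 and -1.19 in anti-GCGR replicates 1 to 6, against 3.28, 2.91, 2.38, 2.20 and 3.25 in PBS replicates 1, 3, 4, 5 and 6. In 5 antibody livers the transcript was dimmer than in the reference, whereas replicate 5 lay within the PBS range and made the groups overlap. The means were -1.23 ± 1.94 with anti-GCGR (SD, n = 6) and 2.80 ± 0.49 with PBS (SD, n = 5), a difference of -4.03 ± 0.72 (SE), which is 16.4-fold lower on the linear scale. Without anti-GCGR replicate 5 the groups did not overlap, and the difference was -4.74 ± 0.38, or 26.7-fold lower.

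Mt1 followed the same order closely. It had -2.19, -0.69, -1.71, -2.38, 2.05 and -1.19 in anti-GCGR replicates 1 to 6, against 2.81, 2.20, 2.09, 1.90 and 2.59 in the PBS replicates in the order above. Replicate 5 again stood with the PBS livers, above the lowest of them. The means were -1.02 ± 1.63 with anti-GCGR and 2.32 ± 0.37 with PBS, a difference of -3.34 ± 0.60, or 10.1-fold lower. Leaving out anti-GCGR replicate 5 gave -3.95 ± 0.27, or 15.5-fold lower, with no overlap. Both probes were well above background on all 11 arrays in both dyes, so the low values are measured and not limits of detection, and no member spot was saturated or uneven.

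**Figure D1:**
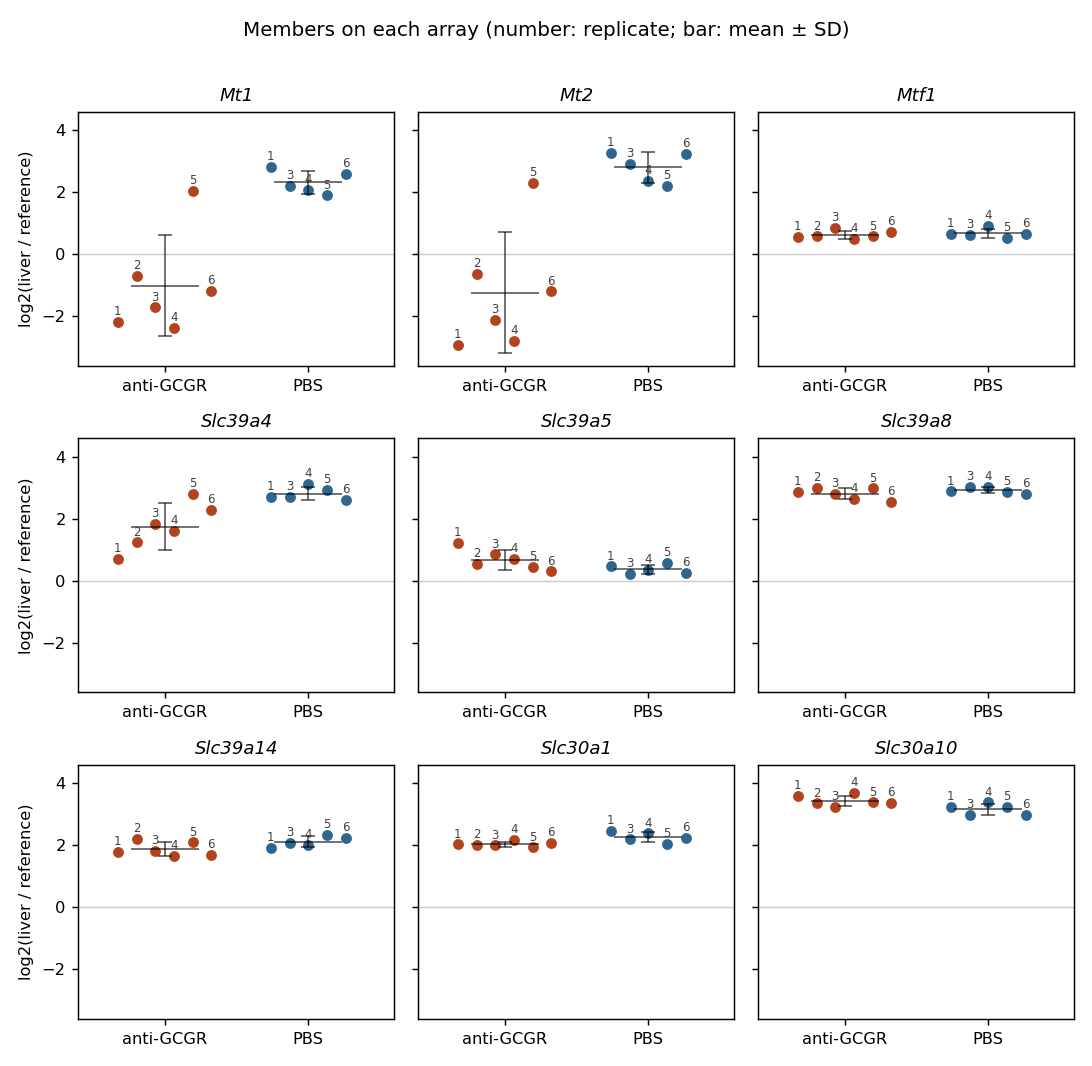
Log2 ratio of liver over reference (y axis) of the 9 genes, 1 panel each, for the 6 anti-GCGR and 5 PBS arrays. Points are arrays numbered by replicate, and bars are the mean ± SD. Mt1 and Mt2 are far lower on 5 antibody arrays, anti-GCGR replicate 5 sits with the PBS arrays, Slc39a4 spreads between both, and the remaining genes lie close together.

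Mtf1, which encodes the regulator itself, had nearly the same level in both groups. On the probe standing for the gene it ranged from 0.51 to 0.84 (median 0.58) with anti-GCGR and from 0.52 to 0.92 with PBS, a difference of -0.04 ± 0.08. A second probe ranged from 0.23 to 0.56 with anti-GCGR and from 0.35 to 0.61 with PBS, a difference of -0.16 ± 0.07, and the groups overlapped. The third Mtf1 probe was not well above background on any array.

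Among the importers, Slc39a4 differed most. It encodes ZIP4, best known as the zinc importer of the gut, which is lost in the human zinc deficiency acrodermatitis enteropathica. Its log2 ratios were 0.72, 1.24, 1.83, 1.62, 2.81 and 2.30 in anti-GCGR replicates 1 to 6, against 2.70, 2.70, 3.13, 2.93 and 2.61 in PBS replicates 1, 3, 4, 5 and 6. All antibody livers but replicate 5 were below every PBS liver. The means were 1.75 ± 0.74 with anti-GCGR and 2.81 ± 0.21 with PBS, a difference of -1.06 ± 0.28, or 2.09-fold lower. Without anti-GCGR replicate 5 it was -1.27 ± 0.22, or 2.42-fold lower, and the groups did not overlap. Its order among the antibody livers was not that of Mt2: Mt2 was highest in replicates 5, 2 and 6, and Slc39a4 in replicates 5, 6 and 3.

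The other 3 importers differed by less. Slc39a14 encodes ZIP14, an importer of zinc, iron and manganese in hepatocytes that inflammation is known to induce. It ranged from 1.65 to 2.22 (median 1.80) with anti-GCGR and from 1.92 to 2.33 with PBS, a difference of -0.25 ± 0.11. Slc39a8, whose product ZIP8 carries zinc and manganese, ranged from 2.54 to 3.00 (median 2.83) with anti-GCGR and from 2.81 to 3.04 with PBS, a difference of -0.12 ± 0.08. Slc39a5, encoding a ZIP protein of enterocytes and pancreatic acinar cells, was the importer with a higher mean under antibody. It ranged from 0.30 to 1.22 (median 0.62) with anti-GCGR and from 0.22 to 0.57 with PBS, a difference of 0.31 ± 0.13. The groups overlapped for all 3 genes, with and without anti-GCGR replicate 5.

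The 2 Slc30 members differed in opposite directions by similar amounts. Slc30a1 encodes ZnT1, the zinc exporter of the plasma membrane. It ranged from 1.93 to 2.16 (median 2.02) with anti-GCGR and from 2.03 to 2.46 with PBS, a difference of -0.22 ± 0.07, or 1.17-fold lower. Slc30a10 encodes a transporter known mainly for exporting manganese. It ranged from 3.24 to 3.68 (median 3.38) with anti-GCGR and from 2.98 to 3.38 with PBS, a difference of 0.28 ± 0.09, or 1.21-fold higher. The groups overlapped for both genes. The Cy3 reference signal was well above background on only 3 of 11 arrays for Slc30a10 and on 5 of 11 for Slc39a5. In Cy5 alone, scaled across arrays without Cy3, their differences were 0.16 for Slc30a10 and 0.24 for Slc39a5.

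In the fit over all genes (limma, Benjamini-Hochberg adjusted p under 0.05), 3 of the 9 genes were called lower (Mt1, Mt2 and Slc39a4) and the other 6 were not called. Over all 15953 genes 5.67% were called lower and 8.98% higher. Without anti-GCGR replicate 5 the same 3 genes were called lower, against 9.87% of all genes. The groups did not overlap for 0 of the 9 genes, against 6.65% of all genes, and for 3 of the 9 without replicate 5, against 17%. Since these genes were selected on this contrast, nothing is read from these counts. The call of Slc39a4 was lost when anti-GCGR replicate 2, 3 or 4 or PBS replicate 1, 3, 4 or 5 was left out, while those of Mt1 and Mt2 were kept in every such fit. The 9 differences had 7 values below 0, and the median over all genes was 0.01. Bulk liver RNA cannot tell fewer expressing cells from less transcript per cell.

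Anti-GCGR replicate 5 stood apart beyond these genes. Over the 3868 genes called when it was left out, its median share of the group difference was 0.194 (a share of 1 being the full difference), while each other antibody array, judged in the same way on the genes called without it, had between 0.903 and 1.24. Its label was kept in all groupings.

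The arrays lay on 3 slides, each scanned separately. Slide 2 held anti-GCGR replicates 2 and 5, the highest of their group for both metallothioneins, beside PBS replicate 5. The Mt2 difference was -5.69 on slide 1, -1.38 on slide 2 and -4.74 on slide 3, that of Mt1 was -4.73, -1.22 and -3.85, and that of Slc39a4 was -1.75, -0.91 and -0.59. All 3 genes were lower with anti-GCGR on each slide. The direction differed between slides for Mtf1 (-0.25, 0.06 and 0.15), Slc39a5 (0.56, -0.07 and 0.33) and Slc39a8 (-0.21, 0.12 and -0.24). Antibody samples always occupied positions 3 and 4 of a slide and PBS samples positions 1 and 2, so position and treatment cannot be told apart.

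**Figure D2:**
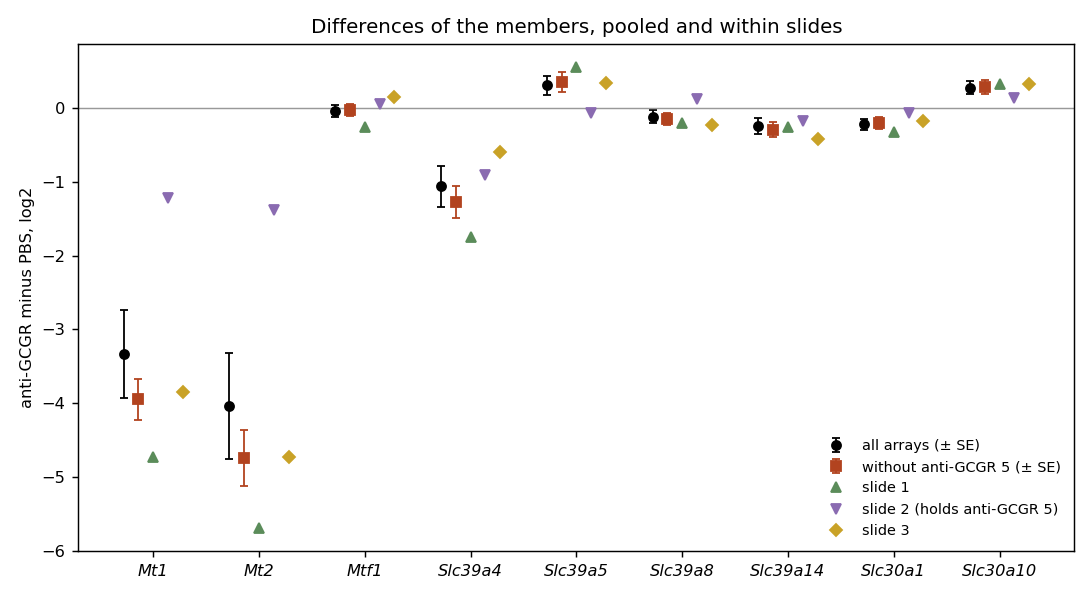
Difference of anti-GCGR minus PBS in log2 units (y axis) for each of the 9 genes (x axis), over all arrays and without anti-GCGR replicate 5 (both ± SE), and within each of the 3 slides (no error shown). Mt1, Mt2 and Slc39a4 are below 0 in every fit, with the metallothionein differences nearest 0 on slide 2, which holds anti-GCGR replicate 5.

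The reference channel was not even for the metallothioneins. The channel values here were recovered after loess and Aquantile scaling, so each still depends in part on the other dye. In Cy5, the liver channel, Mt2 was lower by a log2 difference of -3.48 and Mt1 by -2.70 with anti-GCGR than with PBS. Scaled across arrays without Cy3, Cy5 alone gave -3.35 for Mt2 and -2.61 for Mt1. In Cy3, where every array carried the same reference RNA, Mt2 was higher by 0.56 and Mt1 by 0.63 on the antibody arrays. The liver channel therefore held most of the ratio's difference. For Slc39a4 the differences were -1.42 in Cy5 and -0.36 in Cy3.

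How the genes ran together among the 6 treated livers is given as a description with no p, since these arrays also served to choose the genes and replicate 5 lies near PBS over many called genes. Across them Mt1 correlated with Mt2 at Pearson r = 0.994 and Spearman rho = 0.943. Without the 2 arrays farthest from the Mt2 median, replicates 5 and 1, r was 0.994 over 4 arrays. Slc39a4 correlated with Mt2 at r = 0.738 and rho = 0.657. Without the same 2 arrays its r was -0.12, so it rests on them. For the other 6 genes r ran from -0.675 (Slc30a1) to 0.683 (Slc39a14). After each slide's mean was subtracted from its 2 antibody arrays, r was 0.986 for Mt1 and 0.898 for Slc39a4, with the pair that holds replicate 5 farthest apart in Mt2. The 2 arrays of a slide were in the same order for Mt1 as for Mt2 on 2 of 3 slides, and in the opposite order on slide 1. For Slc39a4 they were in the order of Mt2 on all 3 slides. Mt1 and Mt2 are neighbouring genes on chromosome 8 and their coding sequences are related, and whether their probes cross-hybridise was not tested.

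**Figure D3:**
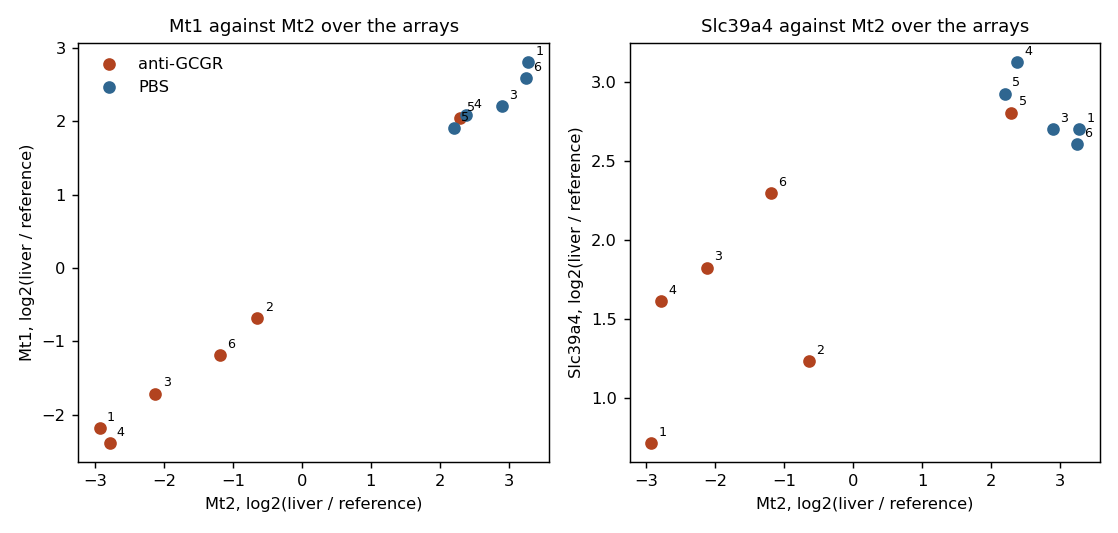
Log2 ratio of Mt2 (x axis) against that of Mt1 (left) and Slc39a4 (right, y axes) on the 6 anti-GCGR and 5 PBS arrays, numbered by replicate. Mt1 follows Mt2 along a line through both groups, and anti-GCGR replicate 5 lies among the PBS arrays. Slc39a4 does not keep the order of Mt2 among the antibody arrays.

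The other metallothioneins of the same locus were not called. Mt4, Mt3, Mt2 and Mt1 lie in this order on chromosome 8, with 1 noncoding gene between Mt3 and Mt2. Mt3, known as a metallothionein of brain, averaged 1.13 ± 0.10 with anti-GCGR and 1.14 ± 0.08 with PBS (limma adjusted p = 0.925). Mt4, known from stratified epithelium, averaged -0.31 ± 0.07 with anti-GCGR and -0.41 ± 0.10 with PBS (limma adjusted p = 0.246). Of these 2 genes 0 passed limma's threshold, and 0 had an unadjusted p under 0.05.

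Among the rest of the ZIP family, 9 of 10 genes were measured, 2 rose and 0 fell (2 were lower at an unadjusted limma p under 0.05), with a median difference of 0.05 against 0.01 over all genes. The shares over all genes were 8.98% higher and 5.67% lower. Under median centring and in Cy5 alone the counts were 1 higher and 1 lower. Over all 15953 genes they were 582 higher and 2146 lower, and 1178 higher and 1117 lower. Slc39a10, whose transcript MTF1 is known to repress in mouse cells when zinc is plentiful, had its lowest, median and highest values at -1.98, -1.49 and -1.23 with anti-GCGR, against -2.14 to -1.97 with PBS. The antibody array that lay inside the PBS range was replicate 5. Slc39a10 rose by 0.53 ± 0.11 (limma adjusted p = 0.0114), the largest difference among the 9. Slc39a11 encodes a ZIP protein of a separate branch of the family. It averaged 1.40 ± 0.06 with anti-GCGR and 1.22 ± 0.08 with PBS, with no overlap, and rose by 0.18 ± 0.05 (limma adjusted p = 0.0353), but this call was lost in 8 of the 11 fits without 1 array. In Cy5 alone Slc39a11 was at 0.03 (limma adjusted p = 0.815). Of the other ZnT genes, 7 of 8 were measured and 0 passed limma's test (2 were higher at an unadjusted p under 0.05), with differences from -0.08 to 0.19. The nearest to the threshold was Slc30a8, known from pancreatic islets, at 0.19 ± 0.06 (limma adjusted p = 0.0504), which was called in 3 of the 11 fits that left out 1 array.

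**Figure D4:**
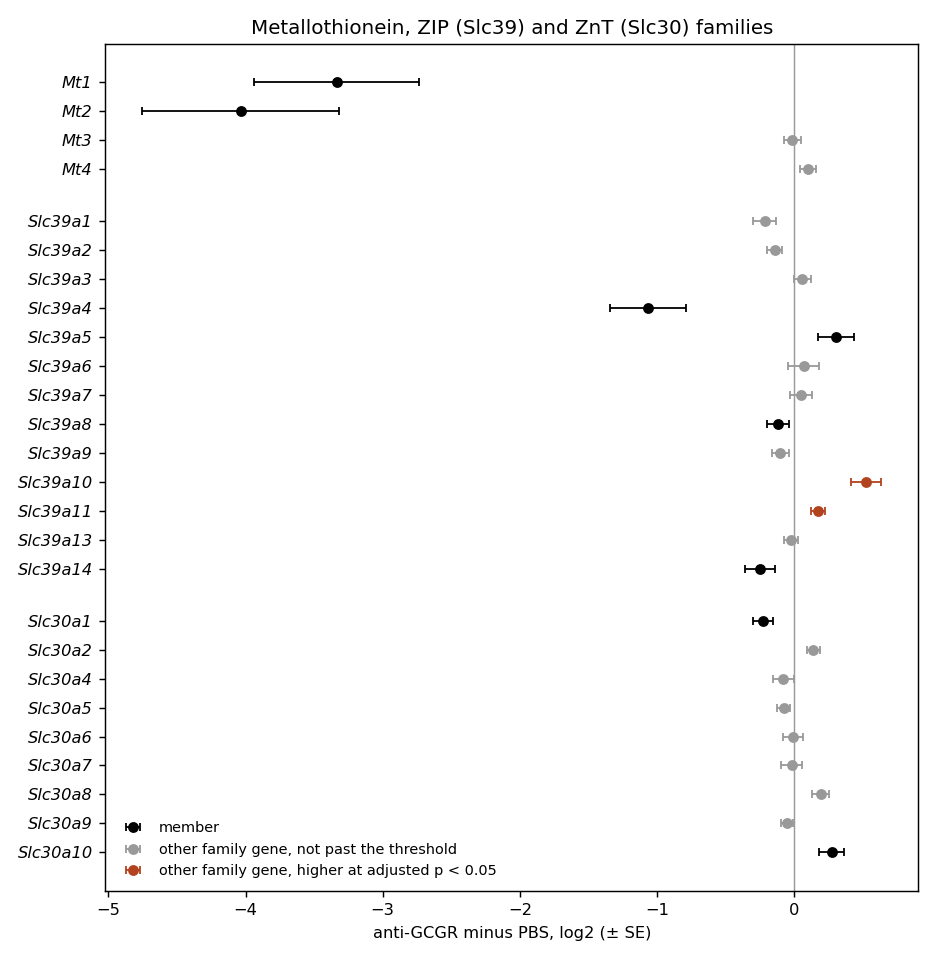
Difference of anti-GCGR minus PBS in log2 units (x axis, ± SE) for the measured metallothioneins, Slc39 genes and Slc30 genes (rows). Black marks the genes selected for description, red other family genes that were higher at adjusted p under 0.05, and grey other family genes that did not pass. Mt1, Mt2 and Slc39a4 lie at -3.34, -4.03 and -1.06, and the other genes lie between -0.25 and 0.53.

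Of 7 other reported targets of MTF1, 2 rose, 1 fell and 4 did not pass, with a median of 0.01, beside 8.98% higher and 5.67% lower over all genes. With the scanner software's ratio, and with a replicate block, 2 were higher and 0 lower. Over all genes these settings gave 978 higher and 1185 lower, and 715 higher and 335 lower. Those that rose were Slc39a10 (above) and Selenoh, a selenoprotein gene, at 0.32 ± 0.06 (limma adjusted p = 0.00883). Its groups did not overlap, at -1.81 to -1.55 with anti-GCGR against -2.19 to -1.93 with PBS. Selenow, another selenoprotein gene, fell, with a difference of -0.57 ± 0.15 (limma adjusted p = 0.027). It lay between -0.14 and 0.29 in 5 antibody livers and at 0.93 in replicate 5, against 0.70 to 0.88 with PBS, and its call was lost in 6 of the 11 fits without 1 array.

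Calls among genes of other metals are set beside 8.98% higher and 5.67% lower over all genes. In Cy5 alone the counts over all 15953 genes were 1178 higher and 1117 lower. They were 978 and 1185 with the scanner software's ratio, and 582 and 2146 under median centring. Of 14 copper genes, 1 rose and 1 fell, with 0 higher and 1 lower in Cy5 alone and with the scanner software's ratio. Cp, encoding the copper-carrying ferroxidase ceruloplasmin, rose by 0.52 ± 0.15 (limma adjusted p = 0.0344), with anti-GCGR replicate 5 at 2.06, the other antibody livers from 2.73 to 2.97, and the PBS livers from 1.96 to 2.45. Steap4, a metalloreductase gene, had a difference of -0.44 ± 0.14 (limma adjusted p = 0.0446). With the scanner software's ratio Steap4 was at -0.06 (limma adjusted p = 0.936), and it was also not called without background subtraction or with a slide or replicate block. Of 13 manganese and iron genes, 2 rose and 2 fell, with 0 higher and 2 lower under median centring. Slc25a37, encoding the mitochondrial iron importer mitoferrin 1, rose by 0.37 ± 0.09 (limma adjusted p = 0.0166) on its brightest probe. A second Slc25a37 probe, above background on all 11 arrays, was at -0.06 ± 0.08, and the mean of both probes, at 0.15, was not called. Nor was the brightest probe called in Cy5 alone, under median centring or with a replicate block. Slc11a1, encoding a macrophage metal transporter, rose by 0.23 ± 0.06 (limma adjusted p = 0.0294). Slc25a38, encoding a mitochondrial glycine carrier used in haem synthesis, had a difference of -0.43 ± 0.08 (limma adjusted p = 0.0087). Hamp2, a hepcidin paralogue, had a difference of -0.49 ± 0.13 (limma adjusted p = 0.0283). The calls of Cp, Steap4, Slc11a1 and Hamp2 were lost in 9, 8, 7 and 7 of the 11 fits without 1 array.

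Of 24 zinc-dependent liver enzymes, 0 rose (also at an unadjusted limma p under 0.05) and 3 fell, with a median of -0.02. The shares over all genes were 8.98% higher and 5.67% lower. Under median centring 0 were higher and 5 lower, and in Cy5 alone 1 was higher and 4 lower. Over all 15953 genes median centring gave 582 higher and 2146 lower, and Cy5 alone 1178 higher and 1117 lower. Car1, a carbonic anhydrase gene, fell, averaging 1.74 ± 0.36 with anti-GCGR and 2.49 ± 0.18 with PBS, a difference of -0.74 ± 0.15 (limma adjusted p = 0.0103). Its antibody values lay between 1.43 and 1.82 apart from replicate 5 at 2.42, within the PBS range of 2.28 to 2.77. Lap3, an aminopeptidase gene, had a difference of -0.44 ± 0.14 (limma adjusted p = 0.0496), which was lost in 10 of the 11 fits without 1 array. The third, Ace, encoding angiotensin-converting enzyme and named after its value was seen, had -0.43 ± 0.07 (limma adjusted p = 0.00621).

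Other routes known to act on metallothionein genes were listed beside them. Of 20 glucocorticoid-induced genes, 2 rose and 1 fell, with a median of 0.08. The shares over all genes were 8.98% higher and 5.67% lower. Under median centring 0 were higher and 5 lower, and in Cy5 alone 2 were higher and 3 lower. Over all 15953 genes median centring gave 582 higher and 2146 lower, and Cy5 alone 1178 higher and 1117 lower. Tsc22d3, a classic glucocorticoid target, fell, at 1.54 to 1.76 with anti-GCGR against 1.68 to 2.07 with PBS, a difference of -0.28 ± 0.07 (limma adjusted p = 0.0239). Gadd45b and Ddit4, both stress-response genes, rose by 0.22 ± 0.06 (limma adjusted p = 0.0296) and 0.18 ± 0.05 (limma adjusted p = 0.023). Under median centring Gadd45b was at 0.11 (limma adjusted p = 0.238) and Ddit4 at 0.08 (limma adjusted p = 0.343). Without anti-GCGR replicate 5 the counts were 6 higher and 5 lower, against 2294 higher and 1574 lower over all 15953 genes. Tsc22d3 and Gadd45b lost their calls in 5 and 6 of the 11 fits without 1 array.

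Of 26 interleukin-6 and acute phase genes, 2 rose and 2 fell, with a median of -0.06. The shares over all genes were 8.98% higher and 5.67% lower. Under median centring 2 were higher and 6 lower, against 582 and 2146 over all 15953 genes. In Cy5 alone 1 was higher and 6 lower, against 1178 and 1117. With the scanner software's ratio 2 were higher and 0 lower, against 978 and 1185. The 4 genes called were Cp and Steap4, given above, and the 2 chains of the interleukin-6 receptor. Il6st, encoding its signalling chain gp130, rose by 0.34 ± 0.07 (limma adjusted p = 0.0103), at -0.06 to 0.36 with anti-GCGR against -0.34 to -0.08 with PBS. Il6ra, encoding the binding chain, fell, with a difference of -0.54 ± 0.14 (limma adjusted p = 0.0228), at 1.23 to 2.02 with anti-GCGR against 1.87 to 2.37 with PBS.

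Of 20 measured genes of the NRF2 oxidative stress route, 3 rose and 0 fell (3 were lower at an unadjusted limma p under 0.05), with a median of 0.02. The shares over all genes were 8.98% higher and 5.67% lower. Under median centring 2 were higher and 3 lower, against 582 and 2146 over all 15953 genes. Cbr3, a carbonyl reductase gene, lay between -0.86 and 0.66 in 5 antibody livers and at -2.17 in replicate 5, against -2.34 to -1.99 with PBS. Its difference was 1.64 ± 0.36, or 3.13-fold higher (limma adjusted p = 0.0124). Srxn1, encoding sulfiredoxin, rose by 0.84 ± 0.15 (limma adjusted p = 0.00644), and its groups did not overlap, at 0.68 to 1.68 with anti-GCGR against 0.30 to 0.55 with PBS. Ephx1, an epoxide hydrolase gene named after its value was seen, rose by 0.32 ± 0.09 (limma adjusted p = 0.0305). Without anti-GCGR replicate 5 the counts were 4 higher and 3 lower, against 2294 higher and 1574 lower over all 15953 genes.

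The genes whose log2 ratios were most like those of Mt2 over all 11 arrays, among 15889 genes with a value on every array, were Pcbp4 (r = 0.987), Gm6994 (r = 0.985), Creb5 (r = 0.982), Capza1 (r = 0.980) and Epha5 (r = 0.980). Mt1 itself had r = 0.997 and Slc39a4 had r = 0.848. All these arrays share the group difference and replicate 5, so r carries no p. After each group's own mean was subtracted, the highest were Pcbp4 (r = 0.976), Gm6994 (r = 0.951), Snhg12 (r = 0.948), Snx9 (r = 0.944) and Washc1 (r = 0.942), beside Mt1 at 0.992 and Slc39a4 at 0.651.

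The differences of these genes were far smaller than that of Mt2. Pcbp4, encoding an RNA-binding protein, ranged from -0.87 to -0.12 with anti-GCGR and from -0.25 to -0.02 with PBS, a difference of -0.47 ± 0.11. Creb5, encoding a factor of the CRE-binding family, ranged from 1.53 to 2.21 with anti-GCGR and from 2.29 to 2.42 with PBS, a difference of -0.61 ± 0.11. Snhg12, a noncoding host gene of small nucleolar RNAs, had -0.56 ± 0.16, with replicate 5 at -0.25 and the other antibody livers from -1.40 to -1.07, against -0.62 to -0.36 with PBS. The likeness did not hold over all probes of a gene. The 3 other probes of Capza1 correlated with Mt2 at 0.07, 0.21 and 0.03, and the other probe of Epha5, above background on 5 arrays, at 0.10. The other probe of Snx9 had 0.561, while that of Washc1 had 0.939.

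**Figure D5:**
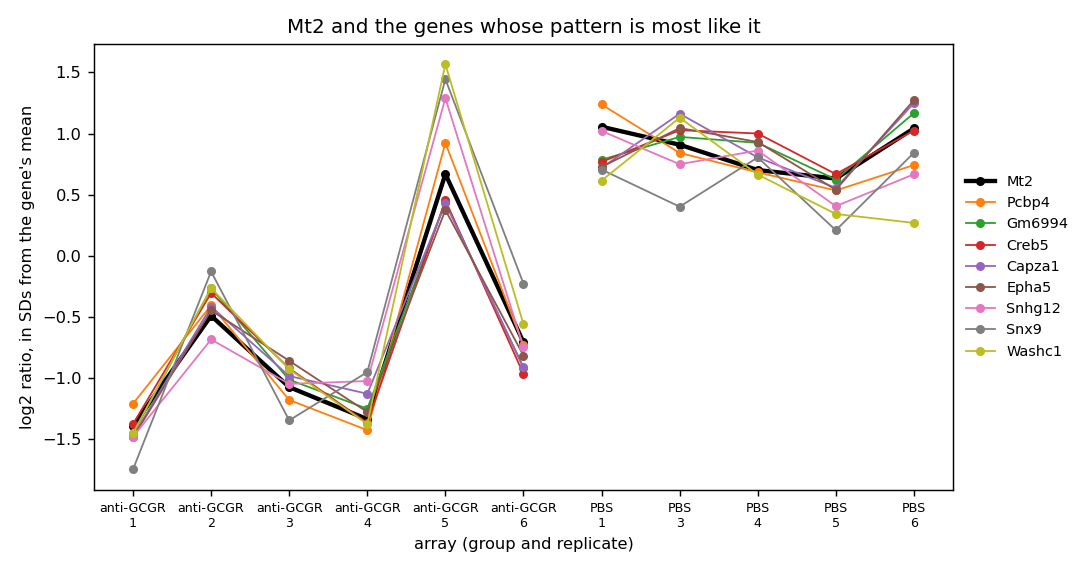
Mt2 (black) and the 8 genes most like it (colours) on the 6 anti-GCGR and 5 PBS arrays (x axis), each as its log2 ratio in standard deviations from the gene's own mean (y axis). All are low on anti-GCGR replicates 1, 3 and 4, and near the PBS arrays on replicate 5. Snx9 and Washc1 were chosen for likeness within the groups.

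Markers of other cells were set beside these values. Over 10 marker lists limma called 0 genes lower, while 3 hepatocyte markers and 1 adipocyte marker were lower at an unadjusted p under 0.05. Of 12 pancreatic acinar markers 9 were measured and 0 were called (2 were higher at an unadjusted limma p under 0.05), with array means of 0.81 to 0.91 with anti-GCGR and 0.77 to 0.84 with PBS, and Cela2a, Prss2 and Pnlip were not above background. Of 7 intestinal markers 4 were measured and 1 was called higher, with means of 1.71 to 1.91 with anti-GCGR and 1.64 to 2.15 with PBS, and Cdx2, Lct and Alpi were not above background. Higher calls were made for 3 of 6 stellate cell markers, 2 of 6 endothelial markers, 2 of 3 measured erythroid markers, 1 of 6 measured macrophage markers and 1 of 10 hepatocyte markers, beside 8.98% of all genes. The stellate means were -0.69 to -0.10 with anti-GCGR and -0.97 to -0.64 with PBS. Their part in the values of the 9 genes was not tested.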

How the data were processed

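The members and all gene lists were chosen with earlier results of these data known. Per the labels, liver RNA was labelled in Cy5 and a pooled reference in Cy3 on every array. The submitters' processing notes name Agilent Feature Extraction 11, and the headers name 11.5.1.1. The deposited scanner files hold, per the file headers, unlogged median intensity of both dyes and of background. They also hold a log10 ratio of processed signals and quality flags, per the file headers. A table of log2 ratios was deposited too, with its processing unstated. Compared with the values computed here, its direction was Cy5 over Cy3, genes were not centred, and its column medians were -0.0028 to 0.0081. The largest difference for a member probe was 0.0665 and the lowest correlation over all probes 0.999964.

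Median signals (the design had said spot signals) were corrected by limma 3.58.1 (R 4.3.3) with normexp at an offset of 50, followed by loess within arrays, with control spots at weight 0. Uneven spots were left out and spots of one probe averaged. Probes were named through their RefSeq accession in a GRCm38.p6 table, and no coordinates of the array design were used. Probes had to be well above background on 5 or more of the 11 arrays in Cy5, and the brightest kept probe stood for its gene. Groups were compared with lmFit and eBayes, two-sided, with Benjamini-Hochberg adjustment at 0.05 over 15953 genes. The fit was tested on simulated data. Values of member probes came from a fit without the filter, with its moderated standard errors. SD is over arrays. Promoter motifs were counted by exact letter match.

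Named genes were the members, for each list the 2 largest rises and falls past the threshold (otherwise the smallest p), and the 5 genes most correlated with Mt2 over all arrays and after subtracting group means. Alternatives covered scaling, background, filters, slide and replicate blocks, and leaving out each array. The fit without anti-GCGR replicate 5 beside each result, and the likeness to Mt2 under other scalings, were added after the data had been seen, as were correlations within slides. The exact permutation test of correlations that the design held is not reported, since the arrays had served to choose the genes.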

Additional observations from a re-analysis of the deposited data

Results flagged for a closer look

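Samples far from the rest of their group were looked for in 80 groups of arrays, and 7 had one. Chance flags about 1 in 20 groups. On 1 Mtf1 probe, anti-GCGR replicate 3 stood apart at 0.56. Selenoh in anti-GCGR replicate 3 was at -1.55. Anti-GCGR replicate 5 stood apart for 3 genes, Cp at 2.06, Slc11a1 at -0.92 and Snhg12 at -0.25. Ddit4 in anti-GCGR replicate 2 was at -2.73. Slc25a38 in PBS replicate 5 was at 1.92. Mt1 and Mt2 themselves did not meet the criterion, since the remaining 5 antibody arrays were also spread widely.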

How the results depend on the processing

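Mt1, Mt2 and Slc39a4 stayed lower with anti-GCGR under all 12 other settings and in all 11 fits without 1 array. Over the 12 settings the log2 difference ran from -4.52 to -3.35 for Mt2, from -3.69 to -2.61 for Mt1 and from -1.47 to -0.96 for Slc39a4. Over both kinds of fit, only Mtf1 of the 9 genes took the opposite sign, at 0.02 with 1 array left out. Slc39a5 was at 0.68 with the scanner software's ratio, and Slc30a1 was at -0.36 under median centring. Over all genes, 1432 were called higher and 904 lower, so that 61.3% of calls were higher. Median centring in place of loess gave 582 higher and 2146 lower (21.3% higher), the scanner software's ratio 45.2% higher and Cy5 alone 51.3% higher, and the cause was not tested. With 1 array left out, the counts ran from 782 to 2294 higher and from 458 to 1574 lower, highest without anti-GCGR replicate 5 and lowest without PBS replicate 1. Samples sharing a replicate number also shared a slide, and correlated at -0.13 to 0.14. Such low correlations cannot tell whether the numbers mark pairs. With a replicate block, 715 genes were higher and 335 lower, and Mt1, Mt2, Slc39a14 and Slc30a10 were called but Slc39a4 was not. With slide as a block, 6 of the 9 genes were called, adding Slc30a1, Slc30a10 and Slc39a14. Aquantile scaling leaves log ratios unchanged. Of the genes like Mt2, Epha5 had r = 0.943 and Creb5 r = 0.959 in Cy5 alone, where Snx9 had r = 0.661.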
